A study of Homo sapiens with 22 samples.

Results

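The semaphorins, plexins, neuropilins, ephrins and EPH receptors were followed through 22 RNA-seq libraries of human renal cancer cell lines. Members were all gene symbols that fit the names of these families, 53 of the 25343 genes listed: 20 semaphorins, 9 plexins, 2 neuropilins, 8 ephrins and 14 EPH receptors. Polyadenylated RNA was sequenced from cultured cells in 7 groups. There were 2 libraries each of 786-O, an established clear cell renal carcinoma line, of 786-M1A, a metastatic line derived from it, and of OS-LM1, another metastatic renal line, which does not descend from 786-O. All 16 remaining libraries are of 786-M1A cells with CRISPRi, a method that brings an inactive Cas9 with a repressor to a chosen DNA site. The non-targeting control (SC) has 6 of them, iMAE-1.1 and iMAE-1.2 have 4 each, and iMAE-126 has 2. The labels do not name the site or gene that each iMAE guide targets, and no animals or treatments other than CRISPRi are named.

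Semaphorins are secreted or membrane-bound guidance cues that signal through plexins, receptors whose inner part acts on small GTPases of the RAS family. The secreted class 3 semaphorins mostly need a neuropilin beside the plexin, and neuropilins also bind VEGF. Ephrins are membrane-bound ligands of the EPH receptor tyrosine kinases, so that cells signal by touch and in both directions. These families were first known from axon guidance, and they also act in vessel growth, epithelial contact and the movement of tumour cells.

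Promoter sequences are shown for some of the members on which the results below turn. SEMA3C, EFNB2 and EPHA2 were higher in 786-M1A than in 786-O and lower under iMAE-126 than under SC. SEMA4D did the opposite, and so did EFNA1, PLXND1 and SEMA6A, for which no sequence is shown. Each window runs 5′ to 3′ from 250 bases before to 50 bases after a RefSeq start site in GRCh38.p14, while the expression files use hg19. SEMA3C has 2 listed starts. Capitals mark matches, on either strand, to 4 motifs: the core of the HIF element (ACGTG), the AP-1 site (TGANTCA), an ETS site (CCGGAAG) and the NF-kB site. The HIF core lies within the E-box CACGTG, which reads the same on both strands and so counts as 2 matches.
SEMA3C, upstream start, chr7:80922340-80922639, minus strand: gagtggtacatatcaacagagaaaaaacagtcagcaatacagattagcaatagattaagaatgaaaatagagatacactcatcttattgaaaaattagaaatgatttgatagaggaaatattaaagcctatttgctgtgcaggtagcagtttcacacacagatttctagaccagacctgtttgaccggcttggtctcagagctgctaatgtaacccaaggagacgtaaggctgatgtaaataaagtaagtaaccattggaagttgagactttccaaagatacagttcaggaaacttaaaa
SEMA3C, downstream start, chr7:80919002-80919301, minus strand: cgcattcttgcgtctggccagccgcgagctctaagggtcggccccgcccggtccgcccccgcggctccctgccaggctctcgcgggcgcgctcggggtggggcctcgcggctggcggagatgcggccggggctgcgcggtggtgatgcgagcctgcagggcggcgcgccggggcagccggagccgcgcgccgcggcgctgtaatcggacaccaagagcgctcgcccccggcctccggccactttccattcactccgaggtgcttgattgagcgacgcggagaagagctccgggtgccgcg
EFNB2, chr13:106535613-106535912, minus strand: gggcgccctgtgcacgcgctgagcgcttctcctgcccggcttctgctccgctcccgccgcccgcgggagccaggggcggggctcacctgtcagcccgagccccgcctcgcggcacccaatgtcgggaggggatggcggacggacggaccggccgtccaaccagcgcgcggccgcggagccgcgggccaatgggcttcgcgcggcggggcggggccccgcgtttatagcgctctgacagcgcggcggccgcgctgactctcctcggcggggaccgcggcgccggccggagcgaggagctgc
EPHA2, chr1:16156020-16156319, minus strand: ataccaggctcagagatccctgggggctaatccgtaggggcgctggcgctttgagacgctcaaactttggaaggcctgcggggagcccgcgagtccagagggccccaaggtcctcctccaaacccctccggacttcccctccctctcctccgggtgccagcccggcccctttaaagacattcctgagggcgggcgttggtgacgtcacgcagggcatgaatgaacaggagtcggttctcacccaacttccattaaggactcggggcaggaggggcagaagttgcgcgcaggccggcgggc
SEMA4D, chr9:89495607-89495906, minus strand: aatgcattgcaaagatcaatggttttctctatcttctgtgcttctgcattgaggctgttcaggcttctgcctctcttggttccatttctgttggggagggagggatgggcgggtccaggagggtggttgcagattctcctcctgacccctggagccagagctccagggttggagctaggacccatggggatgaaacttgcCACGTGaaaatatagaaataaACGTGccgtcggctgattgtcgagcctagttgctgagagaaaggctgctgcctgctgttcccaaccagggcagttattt

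The SEMA4D window held the HIF core 3 times, and the 6 other windows of the members called under iMAE-126 (SEMA3C, EFNB2, EPHA2, EFNA1 and PLXND1) held none of the 4 motifs. No window was listed for SEMA6A. GC content ran from 36.0% at the upstream SEMA3C start to 75.7% at the downstream one, and was 78.7% for EFNB2, 64.3% for EPHA2 and 52.3% for SEMA4D. Over the 74 windows found for 47 members, 21.6% held the HIF core, against 21.4% of all 35116 windows. NF-kB matches were in 14.9% of the members' windows against 11.3%, AP-1 matches in 1.35% against 7.71%, and ETS matches in 4.05% against 10.3%. A match is a string of letters in a window and not a bound site.

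Library depth, in units of 1e6 expected counts, ranged from 9.06 to 52.7 (9.06 to 24.4 in SC and the iMAE-1 guides), and the members took 0.238% to 0.364% of them. The 16 CRISPRi libraries fell into 2 library sets by the mean length of the genes their reads came from, which the labels do not name. Both iMAE-126 libraries and SC replicates 1 and 2 formed set A (3528 to 3716 bases), and set B the 12 others (3264 to 3395). The SC sets differed at 29 of the 37 members at 2 CPM or more, in that no library of one overlapped the other, against 66.3% of all genes at that level. SEMA5B averaged 32.9 CPM (counts per 1e6, scaled by TMM) in SC of set A and 4.46 in SC of set B, a 7.37-fold gap, and SEMA6A differed 2.84-fold and SEMA5A 2.49-fold. The iMAE guides were therefore compared with SC of their own set. Whether replicates were separate cultures is not stated, so p-values measure the spread between these libraries only. The cells were set beside 12 markers of renal lineage and clear cell carcinoma. Of these, 8 to 11, PAX8 and VIM among them, reached 1 TPM in every library of each group. CA9 and NDUFA4L2 did so only in OS-LM1, EMX2 in no group, and CDH16 in all but SC and the iMAE-1 guides. Endothelial markers summed to 0.53 to 1.84 TPM (transcripts per 1e6, a level per length), with PECAM1 at 1 TPM throughout iMAE-126 only. Of 5 leukocyte markers only LYZ reached 1 TPM throughout a group. Smooth muscle and fibroblast markers summed to 0.63 to 46.7 TPM, with ACTG2 at 1 TPM throughout all groups but OS-LM1 and LUM throughout 786-O. Neural markers summed to 4.0 to 11.6 TPM, with SNAP25 at 1 TPM throughout all groups and MAP2 throughout 786-O and 786-M1A.

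These cells expressed few EPH receptors and many semaphorins. At 1 TPM or more, 25 members were present in all 22 libraries, and between 31 (SC and both iMAE-1 guides) and 35 (iMAE-126) in every library of a group. In each group these were 12 to 15 of the 20 semaphorins, 6 or 7 of the 9 plexins, both neuropilins, 5 or 6 of the 8 ephrins and 4 to 6 of the 14 EPH receptors. Another 15 stayed under 1 TPM in every library, among them 8 EPH receptors, EFNA2, EFNB3, PLXNA4, SEMA3D, SEMA3E, SEMA3G and SEMA4A, although each was counted in at least 1 library. PLXNB2, a plexin of epithelia and neural tissue and a receptor for class 4 semaphorins, had the highest level, 197 TPM as the mean of the 7 group means. Its libraries ran from 191.6 to 285.6 TPM in the 3 unmodified lines and from 124.7 to 220.6 under CRISPRi. SEMA4B, a membrane-bound class 4 semaphorin, was next at 195.6 TPM, with 206.2 to 282.5 in the lines, 210.8 to 259.6 in the set A libraries and 106.8 to 143.8 in set B.

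EPHA2, the EPH receptor best known from carcinomas, averaged 127 TPM. It made up 66.8% to 92.1% of the summed TPM of all EPH receptors in every library, followed by EPHB2 in each group. NRP2, a co-receptor for class 3 semaphorins and VEGF-C, averaged 63.8 TPM, and SEMA3C, a secreted class 3 semaphorin, 63.4 TPM. Among ephrins the leading ligand differed between lines. In 786-O, EFNA5 made up 40.2% to 42.5% of ephrin TPM and EFNB2 12.3% to 12.8%. In 786-M1A, EFNB2, the ligand that marks arteries, made up 42.1% to 43.1% and EFNA5 27.4% to 29.1%. In OS-LM1, EFNA5 led with 42.1% to 48.1% and EFNB2 was not among the 4 highest.

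**Figure D1:**
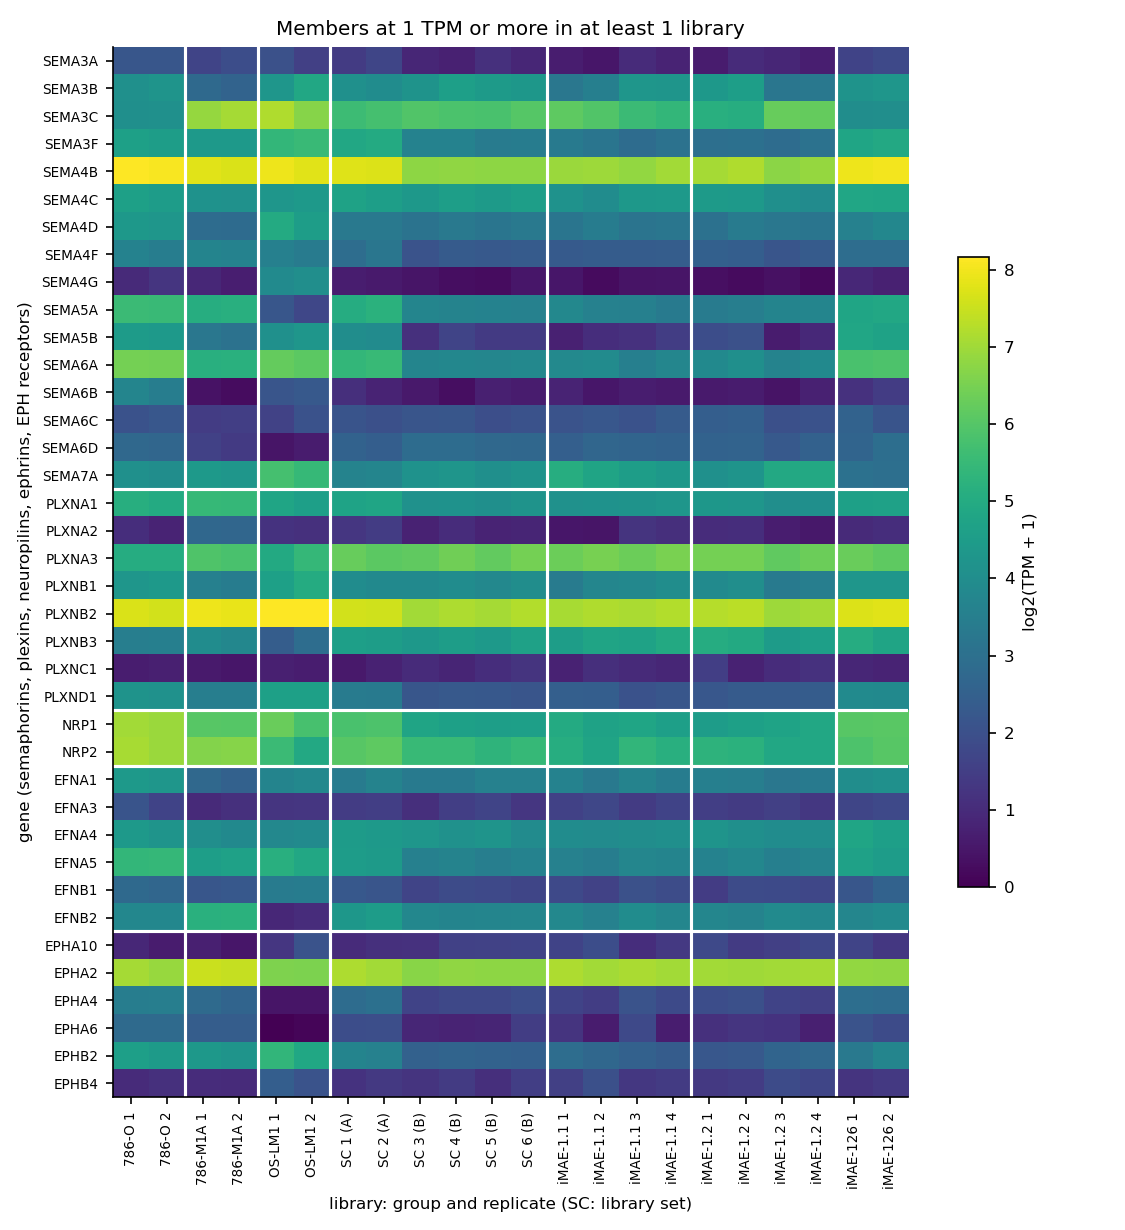
Level of each member that reached 1 TPM in at least 1 library, as log2(TPM + 1) by colour, with genes in rows by family and the 22 libraries in columns by group (SC marked with library set A or B). PLXNB2, SEMA4B and EPHA2 are bright throughout, and SEMA5B and SEMA6A are darker in set B than in set A.

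786-M1A was compared with 786-O to ask what differs between the metastatic derivative and its parent. Of 45 members tested, 27 passed, 8 higher and 19 lower in 786-M1A, where 31.0% of the 16354 genes tested passed (14.7% higher and 16.3% lower). The members' median log2 fold change was -0.58, against -0.02 over all genes. Semaphorins were mostly on the lower side (9 lower and 2 higher of 19), as were ephrins (4 and 1 of 6). Plexins were called higher 4 times and lower 2 times of 8. Calls were made with edgeR's quasi-likelihood test at a Benjamini-Hochberg adjusted p under 0.05, with 2 libraries per group, and levels below are CPM.

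SEMA3C rose most. It stood at 36.9 and 37.8 CPM in 786-O and at 298 and 335 in 786-M1A, a log2 fold change of 3.04 (SE 0.17, adjusted p = 1.12e-05). PLXNA2, a receptor for class 3 and class 6 semaphorins, was at 5.83 and 3.93 CPM in 786-O and 31.6 and 31 in 786-M1A (log2 fold change 2.65, SE 0.18, adjusted p = 2.64e-05). EFNB2 was at 25.5 and 25.0 CPM in 786-O and 76.3 and 78.3 in 786-M1A (log2 fold change 1.58, SE 0.10, adjusted p = 2.08e-05). A secreted ligand, a plexin and a membrane-bound ephrin were thus the 3 largest rises, each with no overlap between lines.

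PLXNA3, also a class 3 receptor, was at 99.4 and 97.9 CPM in 786-O and 197 and 184 in 786-M1A, a log2 fold change of 0.91. EPHA2 was at 238 and 215 CPM in 786-O and 354 and 339 in 786-M1A (log2 fold change 0.58, adjusted p = 0.00417). PLXNA1, another class 3 receptor, was at 139 and 128 CPM in 786-O and 194 and 188 in 786-M1A, a log2 fold change of 0.47. SEMA7A, a GPI-anchored semaphorin that signals through integrins and plexin C1, was at 23.9 and 22.1 CPM in 786-O and 31.7 and 29.8 in 786-M1A (0.38, adjusted p = 0.0408). These last 3, unlike the larger rises, were lost when 1 library was left out. For EPHA2 the adjusted p was 0.0641 without 786-M1A replicate 1 and 0.087 without 786-O replicate 2. PLXNA1 and SEMA7A missed the threshold without any 1 of the 4 libraries, as did PLXNB2 (log2 fold change 0.35 in the full data), with adjusted p-values from 0.0801 to 0.285.

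Among members at 2 CPM or more in either line, SEMA6B fell most. This transmembrane ligand of plexin A receptors was at 21.5 and 17.7 CPM in 786-O and 0.643 and 0.406 in 786-M1A, a log2 fold change of -5.24 (SE 0.23, adjusted p = 3.96e-06). SEMA3E, the secreted ligand of plexin D1, was at 2.52 and 2.51 CPM in 786-O and 0.599 and 0.429 in 786-M1A (log2 fold change -2.32, adjusted p = 0.00196). EFNA1, a ligand of EPHA2, was at 13.9 and 13.0 CPM in 786-O and 4.30 and 3.60 in 786-M1A (log2 fold change -1.80, SE 0.15, adjusted p = 8.64e-05). The receptor EPHA2 and its ligand EFNA1 therefore differed between the lines in opposite directions.

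SEMA4D, the ligand of plexin B1, was at 41.0 and 39.0 CPM in 786-O and 14.3 and 13.9 in 786-M1A, a log2 fold change of -1.54. SEMA6D, which signals through plexin A1, was at 15.2 and 14.3 CPM in 786-O and 5.70 and 4.77 in 786-M1A, a log2 fold change of -1.53. SEMA3B, a secreted semaphorin, was at 20.7 and 20.9 CPM in 786-O and 8.43 and 6.97 in 786-M1A, a log2 fold change of -1.47. Its antisense neighbour SEMA3B-AS1 stayed at or under 0.338 CPM in all libraries, and whether the counting used strand was not stated. SEMA5B, a transmembrane semaphorin, was at 45.1 and 41.2 CPM in 786-O and 19.0 and 16.8 in 786-M1A, a log2 fold change of -1.31. All 4 were lower in both 786-M1A libraries than in either 786-O library.

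Of the 20 receptors and co-receptors tested (plexins, neuropilins and EPH receptors), 5 were called higher and 6 lower. Among the lower ones, NRP1, the neuropilin of SEMA3A and VEGF-A, had a log2 fold change of -1.01, PLXNB1 of -0.85 and PLXND1 of -0.66. NRP2 was not called (-0.16, adjusted p = 0.527). SEMA6A fell by 1.23, EPHA4 by 0.78 and EFNA5 by 0.73 on the log2 scale. EPHB1 fell by 2.01, from 1.75 and 1.72 CPM to 0.355 and 0.525. EPHA5 had 54 counts in 786-O and 1 in 786-M1A over both libraries, 60.3 times as many relative to library totals, with a 95% interval from 10.4 to 2420 for counting error only. EFNA3, EFNB1, SEMA4C and SEMA6C were also called lower (log2 fold changes -1.26, -0.60, -0.38 and -0.83), and each was lost without at least 3 of the 4 libraries in turn, with adjusted p-values between 0.0501 and 0.216. The remaining 8 of the 53 were too low to test: EFNA2, EFNB3, EPHA1, EPHA7, EPHA8, EPHB3, PLXNA4 and SEMA3D.

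**Figure D2:**
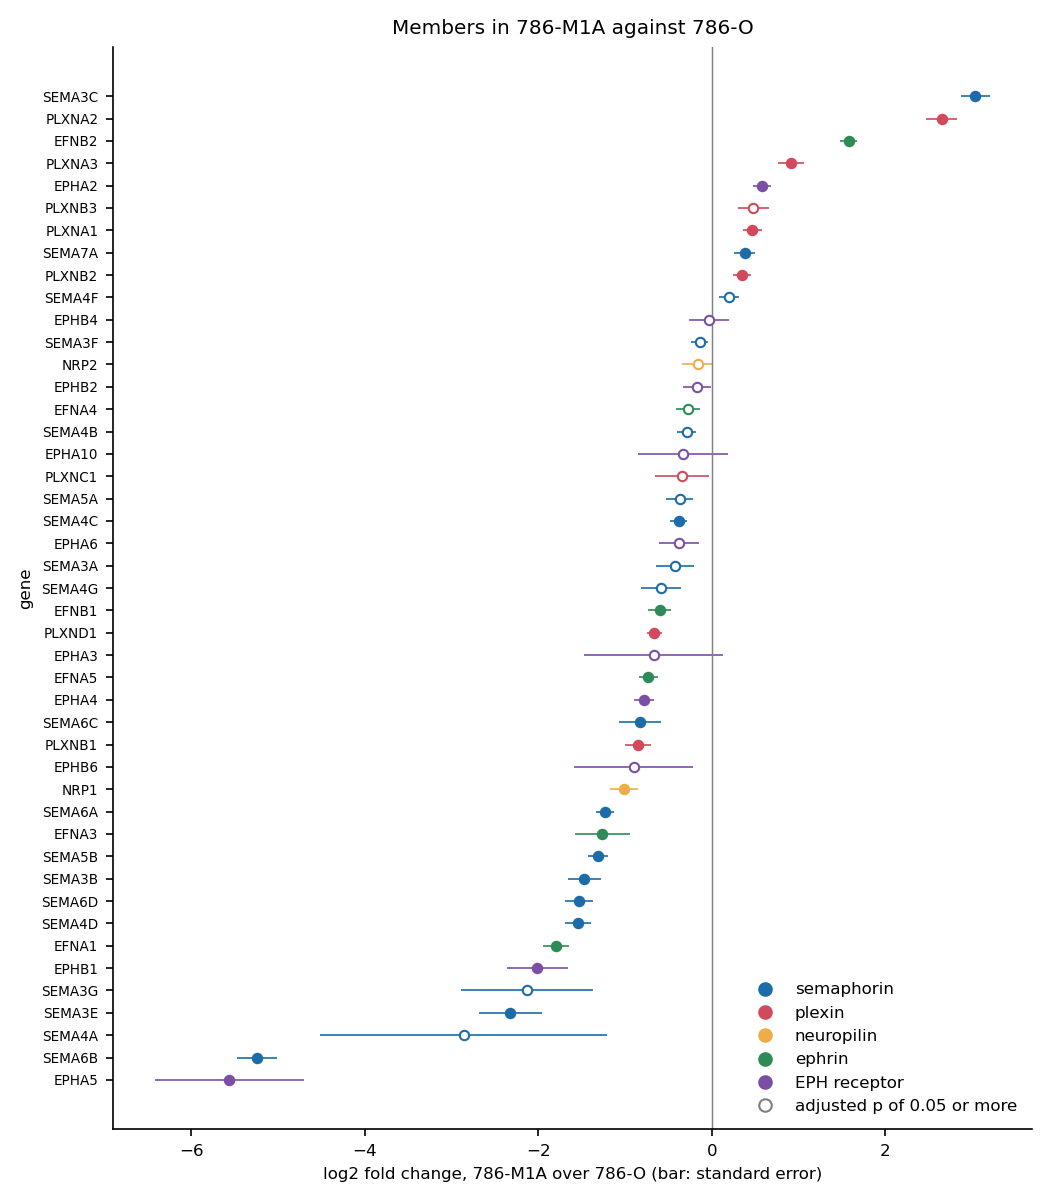
log2 fold change of each of the 45 members tested between 786-M1A and 786-O, with its standard error as a bar and the family as colour, filled where the adjusted p was under 0.05. SEMA3C, PLXNA2 and EFNB2 lie far to the right, and EPHA5 (1 count in 786-M1A) and SEMA6B far to the left.

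OS-LM1 was set beside 786-M1A as a second metastatic line, and this comparison shares the 786-M1A libraries with the one above. Of 45 members tested, 31 passed, 19 higher and 12 lower in OS-LM1, where 68.7% of all genes tested passed (34.4% higher and 34.3% lower). The mean gene length of the reads was 3617 and 3391 bases in OS-LM1 and 3929 and 3982 in 786-M1A, and its part in the differences was not tested. EFNB2, the leading ephrin of 786-M1A, was at 1.95 and 2.40 CPM in OS-LM1, a log2 fold change of -5.16 (SE 0.14, adjusted p = 6.48e-08). EPHA6 had 1 count in OS-LM1 and 306 in 786-M1A over both libraries, 146 times as many in 786-M1A relative to library totals (counting interval 25.9 to 5770). EPHA4, a receptor for ephrins of both classes, was at 1.19 and 1.23 CPM in OS-LM1 against 18.8 and 16.2, a log2 fold change of -3.84. SEMA5A, a transmembrane semaphorin, was at 21.6 and 14.6 CPM against 194 and 199, a log2 fold change of -3.41. In OS-LM1 these 4, an ephrin, 2 EPH receptors and a semaphorin, were the largest falls among members at 2 CPM or more.

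SEMA4G, a class 4 semaphorin, rose most among those members, from 1.89 and 1.31 CPM in 786-M1A to 29.5 and 32.4 in OS-LM1 (log2 fold change 4.27, SE 0.22, adjusted p = 1.51e-06). SEMA6B was at 7.0 and 7.87 CPM in OS-LM1 against 0.643 and 0.406, a log2 fold change of 3.81. SEMA4D was at 72.6 and 54.4 CPM against 14.3 and 13.9, a log2 fold change of 2.19. EPHA10, an EPH receptor without kinase activity, was at 1.51 and 3.44 CPM against 0.665 and 0.406, a log2 fold change of 2.17. SEMA4A had 31 counts in OS-LM1 and 1 in 786-M1A (ratio 65.1, counting interval 10.9 to 2650), and SEMA3E had 1 against 45 (ratio 21.4 the other way, interval 3.65 to 864). SEMA3C, at 382 and 277 CPM in OS-LM1 and 298 and 335 in 786-M1A, was not called. Its level in both of these lines was above that of 786-O. OS-LM1 does not descend from 786-O, and no parent line of OS-LM1 is among the samples. The calls of EFNA5, PLXNA3, PLXNB2 and SEMA4C were each lost without 786-M1A replicate 1, and those of PLXNB2 and SEMA4C without replicate 2 as well, with adjusted p-values from 0.059 to 0.222.

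SC was compared with unmodified 786-M1A to ask how far the CRISPRi control had moved from its parent. The vector cannot be told apart in it from any difference in library preparation or cell stock, and the labels name no such difference. Of 39 members tested, 25 passed, 16 higher and 9 lower in SC, where 53.0% of all genes tested passed (27.8% higher and 25.3% lower). Without either 786-M1A library fewer members were called, and so were fewer of all genes. Of the 25 members, 14 lost their call without some library. Tested against each SC set alone, 20 members were called the same way in both, 11 higher and 9 lower, where 46.7% of all genes were (21.1% higher and 25.6% lower). EPHA4, SEMA3F, SEMA5B and SEMA6A were called in opposite directions by the 2 sets, higher than 786-M1A in set A and lower in set B, as were 1.52% of all genes. On a log2(TPM + 1) scale the median of all genes was -0.17, against 0.07 in CPM.

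The 3 largest rises of 786-M1A over 786-O were each lower in SC than in 786-M1A. Both comparisons use the same 2 libraries of 786-M1A, in which these 3 had been picked for their high level, so the direction is not independent of that choice. PLXNA2 was at 4.88, 6.18 and 9.39 CPM as the lowest, median and highest of the 6 SC libraries, against 31.6 and 31 in 786-M1A (log2 fold change -2.12, SE 0.23, adjusted p = 0.000869). EFNB2 ran from 30.0 through 32.0 to 46.1 CPM in SC, against 76.3 and 78.3 (log2 fold change -1.02, adjusted p = 0.00247). SEMA3C ran from 122 through 170.0 to 191 CPM in SC, against 298 and 335 (log2 fold change -0.87, adjusted p = 0.00417, and 0.0554 without 786-M1A replicate 2). In none of the 3 did any SC library reach a 786-M1A library, in either set.

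EPHB2 and SEMA4F were the other large falls, with log2 fold changes of -1.18 and -1.03, and both calls were lost without either 786-M1A library (adjusted p from 0.0588 to 0.08). SEMA4F, a neural semaphorin, was at 18.8 and 22.9 CPM in SC of set A and 11.3 to 13.9 in set B, against 35.3 and 33.6. EPHB2, a receptor of B ephrins, was at 28.6 and 25.4 in set A and 13.3 to 14.9 in set B, against 47.0 and 42.6. Both therefore lay below 786-M1A in each set and lowest in set B. Going the other way, SEMA6D rose by 1.90, SEMA3B by 1.78, EFNA1 by 1.24 and SEMA6C by 1.1 on the log2 scale. SEMA6D was at 12.7, 19.4 and 21.7 CPM (lowest, median, highest) in SC against 5.70 and 4.77. For SEMA3B these were 18.6, 25.0 and 31 CPM against 8.43 and 6.97. SEMA6C, a class 6 semaphorin, had 5.54, 6.98 and 7.99 CPM against 3.35 and 3.65. EFNA1 had 7.13, 8.46 and 10.0 CPM against 4.30 and 3.60. All 4 were higher in every SC library than in either 786-M1A library, and all 4 had been called lower in 786-M1A than in 786-O, against the same 786-M1A libraries.

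The guide iMAE-126 was compared with SC of library set A, 2 libraries against 2, in a fit of all 16 CRISPRi libraries. Of 39 members tested, 7 passed, 4 higher and 3 lower, where 16.7% of the 15254 genes tested passed (6.31% higher and 10.4% lower). The members' median log2 fold change was 0.27, against 0.00 over all genes. In this fit 17.9% of the members tested were called, close to the share of all genes. The lower 3 were SEMA3C, EFNB2 and EPHA2, and the higher 4 were PLXND1, EFNA1, SEMA4D and SEMA6A.

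SEMA3C was at 39.7 and 39.8 CPM under iMAE-126 and at 122 and 132 in SC of set A, a log2 fold change of -1.67 (SE 0.37, edgeR adjusted p = 0.0111). Both values lay near the 36.9 and 37.8 CPM of 786-O. EFNB2 was at 27.8 and 30.3 CPM against 41.0 and 46.1 (log2 fold change -0.58, SE 0.11, adjusted p = 0.00238). EPHA2 was at 227 and 217 CPM against 280 and 246 (log2 fold change -0.24, SE 0.07, adjusted p = 0.0295). For each of these 3, both iMAE-126 libraries were below both SC libraries of the set.

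PLXND1, the receptor of SEMA3E, was at 50.1 and 47.8 CPM under iMAE-126 against 33.1 and 30.8 (log2 fold change 0.61, SE 0.13, adjusted p = 0.00335). EFNA1 was at 11.6 and 12.3 CPM against 7.13 and 8.47 (log2 fold change 0.63, SE 0.16, adjusted p = 0.0132). SEMA4D was at 26.0 and 29.2 CPM against 20.1 and 19.5 (log2 fold change 0.48, adjusted p = 0.0217). SEMA6A, a transmembrane ligand of plexin A receptors, was at 192 and 198 CPM against 140 and 146 (log2 fold change 0.45, adjusted p = 0.023). Each of the 4 was higher in both iMAE-126 libraries than in both SC libraries of the set.

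Only EFNB2 and PLXND1 were still called whichever of the 4 set A libraries was left out. Fewer of the 39 members were called without any 1 of them, and so were fewer of all genes, so the loss is not particular to the members. SEMA3C had adjusted p-values of 0.0616, 0.0768 and 0.0716 without SC replicate 2, iMAE-126 replicate 1 and iMAE-126 replicate 2, with log2 fold changes of -1.61 to -1.68. EPHA2 lost its call without SC replicate 1 (0.231) and without either iMAE-126 library (0.0831 and 0.178). EFNA1 lost it without the same 3 libraries (0.0552 to 0.116), and SEMA4D and SEMA6A without any 1 of the 4 (0.0546 to 0.15). With the 4 libraries of set A tested by themselves, 16 members were called, and 24.3% of all genes. The share of members is not given for that fit, so the closeness of the 2 shares is stated for the fit of all 16 libraries only. With no library set in the fit, EFNB2, EPHA2 and SEMA4D lost their calls (adjusted p of 0.203, 0.0861 and 0.0572).

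**Figure D3:**
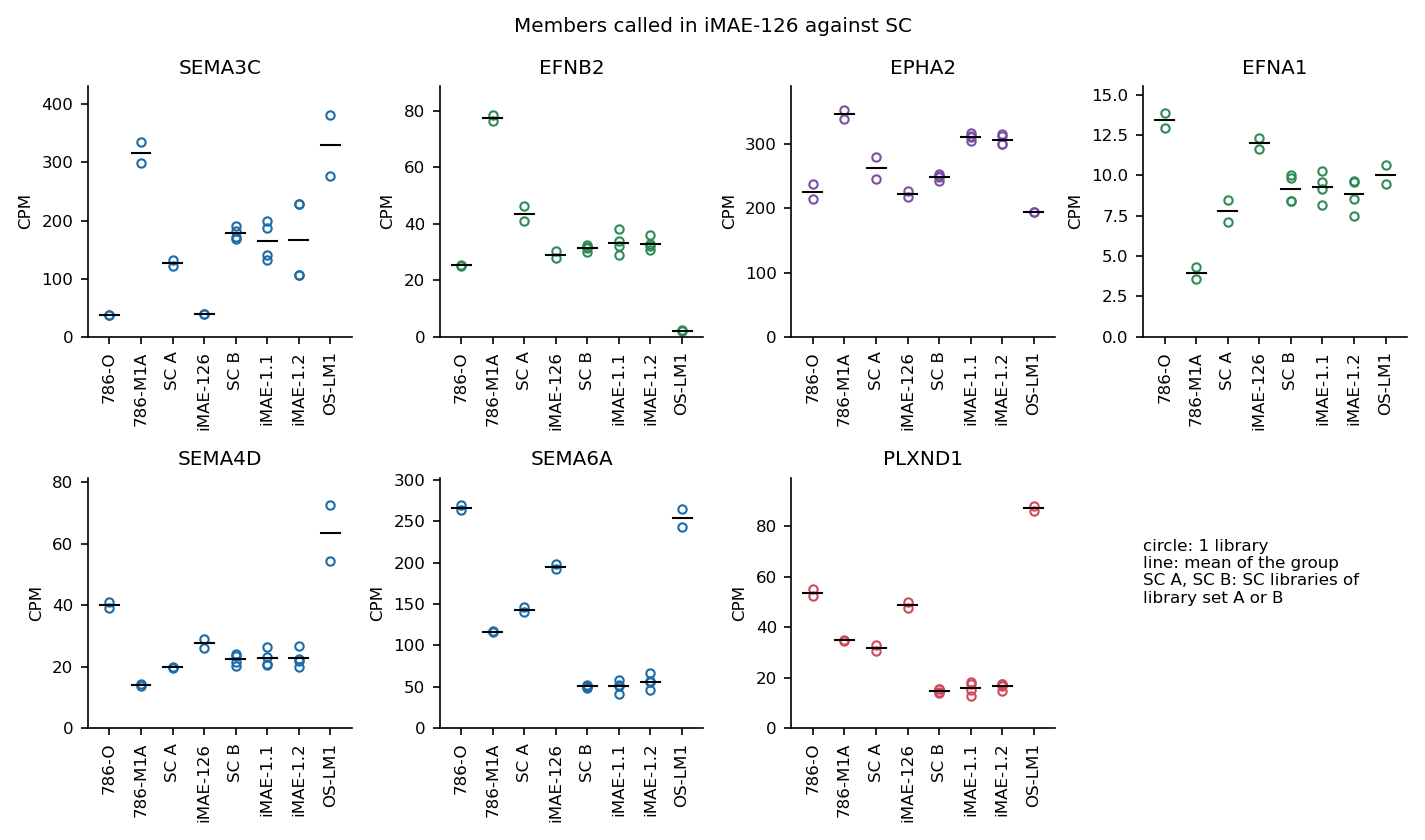
Level in CPM of the 7 members called under iMAE-126, with each library as a circle, each group's mean as a line, and SC split by library set. SEMA3C lies at 39.7 and 39.8 CPM under iMAE-126, beside the 786-O libraries and below all SC libraries.

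All 7 members called under iMAE-126 had also been called between 786-M1A and 786-O, each in the opposite direction. These 2 comparisons share no library. The same held for 1051 of the 1085 genes of all kinds called in both, 96.9%, so the members did as nearly all such genes did. Among the members, the 3 that fell under iMAE-126 (SEMA3C, EFNB2 and EPHA2) had risen in 786-M1A, and the 4 that rose had fallen. PLXNA2, the second largest rise in 786-M1A, was not called under iMAE-126, at 5.56 and 6.14 CPM against 8.32 and 9.39 in SC of set A. SEMA6B, the largest fall in 786-M1A among members at 2 CPM or more, was not called either, at 2.52 and 3.40 CPM against 2.23 and 1.43, with 21.5 and 17.7 in 786-O.

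**Figure D4:**
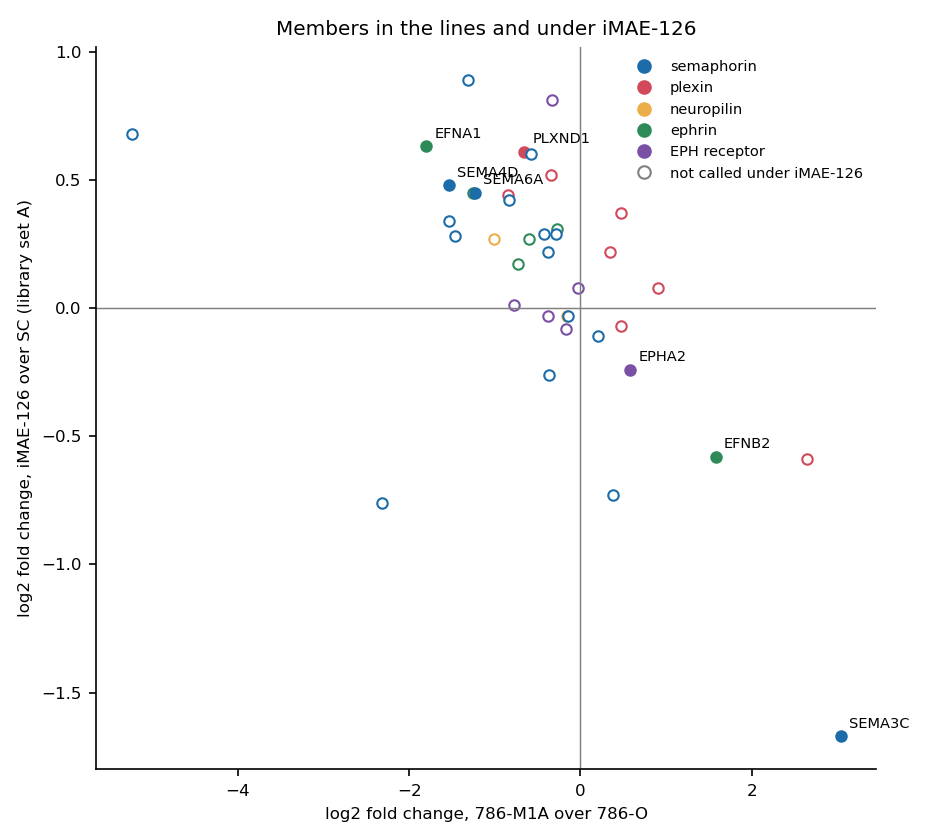
log2 fold change of each member tested in both comparisons, 786-M1A over 786-O on the x axis and iMAE-126 over SC of library set A on the y axis, filled where called under iMAE-126. The 7 filled points lie in the lower right (SEMA3C, EFNB2, EPHA2) and the upper left (EFNA1, PLXND1, SEMA4D, SEMA6A).

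The guides iMAE-1.1 and iMAE-1.2, with 4 libraries each, were compared with the 4 SC libraries of set B in the same fit. Each called the same 2 of 39 members, EPHA2 higher and SEMA3F lower, where 1.79% of all genes passed with iMAE-1.1 (0.911% higher and 0.878% lower) and 2.73% with iMAE-1.2 (1.39% higher and 1.34% lower). These 2 comparisons share the SC libraries. EPHA2 was at 305, 312 and 318 CPM (lowest, median, highest) with iMAE-1.1 and 300, 306 and 315 with iMAE-1.2, against 242, 249 and 253 in SC of set B. Its log2 fold change was 0.33 (SE 0.05, adjusted p = 0.00251) with iMAE-1.1 and 0.30 (SE 0.05, adjusted p = 0.0034) with iMAE-1.2. All 8 libraries were above all 4 SC libraries of the set, and the call held without any 1 library. With a replicate block in the edgeR fit the call was lost with both guides (adjusted p = 0.272 and 0.3). In that fit only 6 and 10 genes of all kinds were called. The levels lay below the 354 and 339 CPM of unmodified 786-M1A.

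SEMA3F, a secreted ligand of NRP2, was at 13.2, 16.5 and 18.0 CPM with iMAE-1.1 and 13.1, 14.8 and 15.6 with iMAE-1.2, against 19.5, 21.6 and 23.2 in SC of set B. Its log2 fold change was -0.42 (SE 0.10, adjusted p = 0.0299) with iMAE-1.1 and -0.56 (SE 0.10, adjusted p = 0.00388) with iMAE-1.2. None of the 8 libraries reached the SC libraries. With iMAE-1.1 the call was lost without SC replicates 3, 4 or 6 or iMAE-1.1 replicates 2, 3 or 4 (adjusted p from 0.0515 to 0.132), and with iMAE-1.2 it held without any 1 library. With no library set in the fit it was lost with both guides (0.12 and 0.0707). Between the 2 guides no member was called, and no gene of any kind, by edgeR. At an unadjusted p under 0.05 there were 0 members and 218 genes, and DESeq2 called 0 members and 1 gene. The fit had no term for the difference that crossed the guides, described next. The lack of calls therefore does not show that the guides act alike.

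The 8 libraries of these 2 guides differed among themselves in a way that crossed the guides. The first principal component of all genes, 39.4% of their variance, set iMAE-1.1 replicates 1 and 2 with iMAE-1.2 replicates 3 and 4 (block P) apart from the other 4 (block Q). The labels name no such blocks, and since they were read from these data the following values are a description with no test. Of 36 members at 2 CPM or more, 13 did not overlap between the blocks, 5 higher and 8 lower in P, against 28.0% of all genes at that level. SEMA3C was at 187 to 229 CPM in block P and 106 to 141 in block Q, with SC of set B at 168 to 191, above Q and overlapping the low end of P. SEMA3B was at 10.5 to 14.4 CPM in P, below the 22.9 to 29.9 of Q and the 24.0 to 31 of SC. PLXNA2 was at 2.57 to 4.0 CPM in P and 7.05 to 8.85 in Q, with SC at 4.88 to 6.98. NRP2 was at 92.3 to 109.5 CPM in P, 127 to 144 in Q and 139 to 156 in SC.

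SEMA7A was at 50.4 to 60.2 CPM in P and 30.6 to 41.7 in Q, against 29.9 to 34.6 in SC, and SEMA4C at 30.3 to 33.7, 40.3 to 44.7 and 40.5 to 47.2. EPHA2 and SEMA3F overlapped between the blocks. EPHA2 was at 299.7 to 315 CPM in P and 299.9 to 318 in Q, and SEMA3F at 13.1 to 18.0 and 13.2 to 16.2. The 2 members called with both guides were thus among those that did not separate the blocks. Both guides have libraries in both blocks, and the fit had no term for block. A gap between blocks therefore widens the spread within a guide and makes a call less likely, so this contrast follows in part from the test. SEMA3C, not called with either guide, lay at the top of the SC range or above it in block P and below it in block Q.

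**Figure D5:**
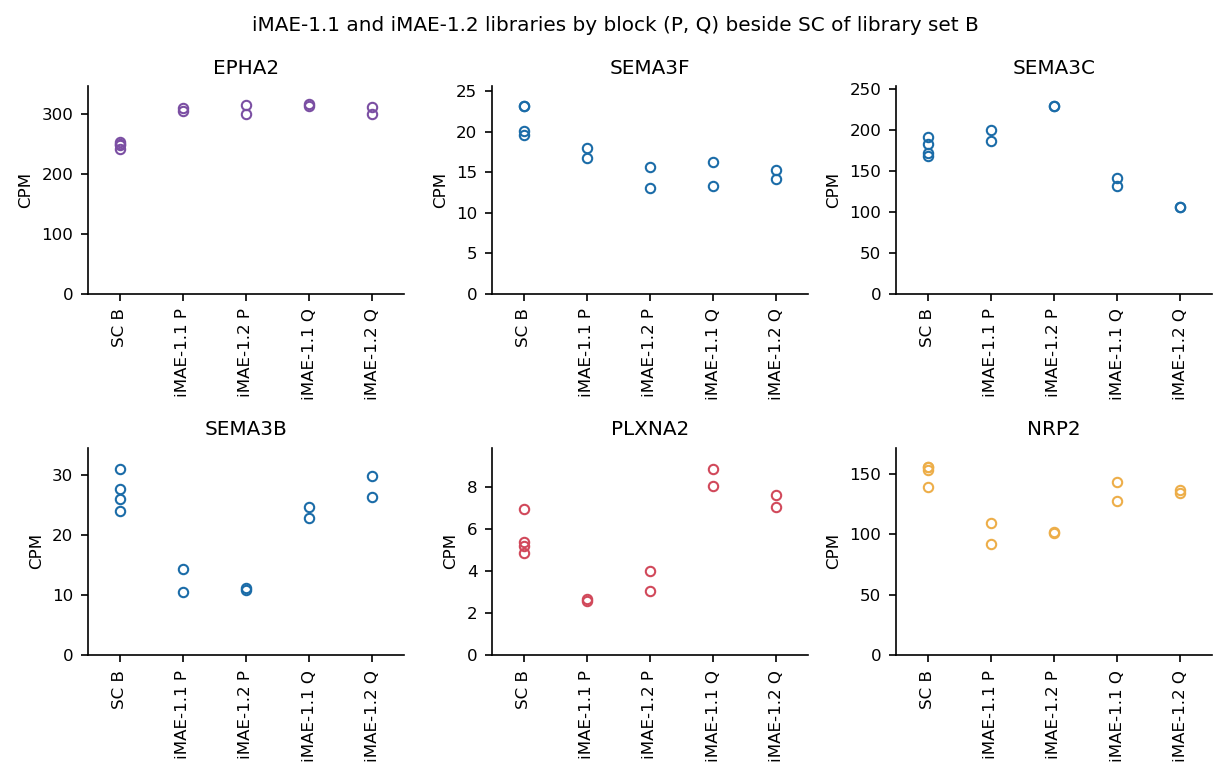
Level in CPM of 6 members in the 4 SC libraries of set B and the 8 libraries of both iMAE-1 guides, split by block (P or Q), with each library as a circle. EPHA2 is above and SEMA3F below SC in both blocks, while SEMA3C, SEMA3B, PLXNA2 and NRP2 separate P from Q.

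Partner genes of the pathways were counted from 3 lists. Of 35 tested signalling partners of plexins and neuropilins, 9 were higher and 7 lower in 786-M1A than in 786-O, where 14.7% of all genes were higher and 16.3% lower. FYN, a SRC-family kinase of the semaphorin 3A pathway, fell by 2.16 on the log2 scale, from 7.93 to 1.82 CPM. Under iMAE-126, 0 of 33 rose and 7 fell, where 6.31% of all genes rose and 10.4% fell, and the list's median log2 fold change was 0.01. MICAL2, an actin-oxidising enzyme of the family that binds plexins, fell by 0.79 (334 CPM in SC of set A, 193 under iMAE-126). RND3 and RRAS2, small GTPases, fell by 0.49 and 0.41. Of the ephrin and EPH partners, 7 of 35 were higher and 8 lower in 786-M1A, and 1 of 34 rose and 9 fell under iMAE-126, with a median of -0.15.

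VAV3, an exchange factor that EPH receptors recruit, was the one that rose under iMAE-126. It averaged 39.9 CPM in 786-O, 0.495 in 786-M1A (log2 fold change -6.36, SE 0.16, adjusted p = 3.17e-07), 6.29 in SC of set A and 18.5 under iMAE-126 (log2 fold change 1.56, SE 0.33, adjusted p = 0.00461). In SC of set B it was at 0.458 CPM, so its level differed between the SC sets too. With the iMAE-1 guides, 1 of 34 ephrin and EPH partners was higher and 0 lower for iMAE-1.1, and 1 higher and 1 lower for iMAE-1.2, and 0 of 33 plexin partners passed with either. KALRN, a RAC exchange factor downstream of EPHB receptors, was called higher with iMAE-1.1 (0.51, adjusted p = 0.018) and iMAE-1.2 (0.52, adjusted p = 0.0135). LYN, a SRC-family kinase, was called lower with iMAE-1.2 (-0.27, adjusted p = 0.0331). Of 18 tested slits, robos, netrins and their kin, 1 was higher and 8 lower in 786-M1A, and 0 of 14 passed with any iMAE guide. FLRT3, an adhesion protein that binds UNC5 receptors, fell from 2.69 to 0.187 CPM. In OS-LM1 against 786-M1A, 13 plexin partners were higher and 13 lower of 35, 7 EPH partners higher and 18 lower of 35, and 8 of the other guidance genes higher and 6 lower of 18, where 34.4% of all genes were higher and 34.3% lower. In SC against 786-M1A these counts were 7 and 11 of 33, 2 and 18 of 34, and 2 and 3 of 13, beside 27.8% and 25.3% of all genes.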

How the data were processed

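Members were found by symbol, and they and the lists were chosen with earlier results of these data known. Each library has 1 file with an expected count and a TPM per gene. The deposited expected count comes from RSEM, run by the authors, and need not be whole. TPM was computed by the authors with RSEM too, and the values of effective length and gene length are equal in all 22 files. Bowtie2, RSEM and hg19 are named in the submitters' processing notes. Versions and strand use in counting were not given. Libraries were stranded, per the labels' protocols.

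After rounding, expected counts of all genes were tested by edgeR 4.0.16 in R 4.3.3: TMM, filterByExpr (minimum count 10), robust quasi-likelihood, Benjamini-Hochberg over all genes, called under an adjusted p of 0.05. There were 3 fits: the 6 libraries of the lines, SC with 786-M1A, and the 16 CRISPRi libraries with library set as a term. CPM used TMM factors over all 22 libraries. The standard error is the log2 fold change over the root of the F value. Totals of 9.06 to 52.7 (in 1e6 counts) limit low members most.

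Values per library were given for up to 7 members per direction in 786-M1A versus 786-O, up to 4 in the comparisons of OS-LM1 and SC with 786-M1A, and up to 6 per iMAE guide, each called and with a group mean of at least 2 CPM, and for the 5 of highest TPM. EPHA5, SEMA4A and the members shown by block were picked after their values were seen. Up to 3 called genes per partner list and comparison could be named. Same-numbered replicates did not deviate together (correlations from -0.34 to 0.07), so no pairing by number was seen. Blocks P and Q cross the numbers of the iMAE-1 guides, and SC of set B shares only part of those numbers. The check therefore cannot tell whether libraries were processed in pairs. Mean chi-square per gene between replicates was 2.24 to 87.0, and no files were identical. Alternatives were RLE factors, DESeq2 1.42.0, a minimum count of 50 or none, limma 3.58.1 on log2(TPM + 1) and log2(TPM + 0.1), a replicate block, subsets of libraries, and each library left out. Fits of blocks P and Q alone were added after seeing the data. Promoter windows come from RefSeq's table. Figures were drawn with matplotlib 3.10.9.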

Additional observations from a re-analysis of the deposited data

Results flagged for a closer look

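Among 84 sets of named members and groups of 4 or more libraries, EPHA2 in SC replicate 1 stood apart from the other 5 SC libraries at 280 CPM. Chance marks about 1 set in 20.

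The effect of iMAE-126 against SC differed from the iMAE-1 guides' mean effect at 7 members by edgeR's quasi-likelihood test of that difference, where 11.9% of all genes passed. The difference was -1.56 for SEMA3C (adjusted p = 0.0362), -1.25 for SEMA7A (adjusted p = 0.0226), -0.65 for EFNB2 (adjusted p = 0.00421) and -0.56 for EPHA2 (adjusted p = 0.000554) on the log2 scale. It was 0.65 for EFNA1 (adjusted p = 0.0336), 0.64 for SEMA6D (adjusted p = 0.0263) and 0.49 for PLXND1 (adjusted p = 0.0414). EPHA2 was called with all 3 guides, lower with iMAE-126 and higher with the others. The iMAE-126 call was lost without SC replicate 1, the library marked above, where the log2 fold change was -0.16 in place of -0.24. The log2 fold change of SEMA7A was -0.73 with iMAE-126, 0.56 with iMAE-1.1 and 0.48 with iMAE-1.2, none of them called, and that of SEMA6D was 0.34, -0.27 and -0.33, also not called. SEMA7A differed between blocks P and Q, and the fit had no term for block, which makes a call of it less likely with any guide. The 2 kinds of guide lie in different library sets, each with its own SC libraries.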

How the results depend on the processing

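No member called in the comparisons as reported turned its direction under any alternative run. Over all called members and alternatives, 1174 values kept their call and 143 lost it. The count of 25 members for SC versus 786-M1A ran from 11 to 28 with 1 library left out, and that of 7 for iMAE-126 from 2 to 7, against 16 with library set A alone. For iMAE-1.1 the count of 2 was 1 to 2 with 1 library left out, 1 with no library set in the design, 10 with block P and 5 with block Q. For iMAE-1.2 the 2 became 2 to 3, 1, 12 and 10. With no library set in the design, 69 genes of all kinds were called with iMAE-1.1 and 110 with iMAE-1.2, against 273 and 417 in the main fit. With a replicate block the counts were 0 for iMAE-1.1, 1 for iMAE-1.2 and 4 for iMAE-126, though no pairing by number was seen. Of all genes, 6, 10 and 1388 were called with that block, against 273, 417 and 2550 without it. For the other comparisons the member counts with the block were 25 for 786-M1A versus 786-O, 31 for OS-LM1 and 27 for SC versus 786-M1A. Of all genes, 4264, 10716 and 8848 were then called, against 5064, 11232 and 7832 without the block. The call of SEMA7A in 786-M1A versus 786-O was also lost with limma on TPM (adjusted p = 0.125 and 0.117). No iMAE-1.2 versus iMAE-1.1 member was called under any alternative run. The block fits compare libraries grouped by their likeness in these data, so their counts are a description (for iMAE-1.1, 12.2% of all genes were called with block P and 4.81% with Q, and for iMAE-1.2 14.7% and 11.4%). Some members were called in opposite directions by P and Q: PLXNA2 with iMAE-1.1 (log2 fold changes -1.08 and 0.61), and SEMA3C (0.36 and -0.76) and SEMA5B (-1.17 and 0.93) with iMAE-1.2. EPHA4, SEMA3F, SEMA5B and SEMA6A, not called in SC versus 786-M1A, were called in opposite directions with the 2 SC sets. The cause of these shifts was not tested.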
